A study of Mus musculus with 20 samples.

Results

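The region described is the stretch of mouse chromosome 17 around Spdef, the gene that was knocked out in this study. Its members are the array probes that map between 17.44 and 37.44 Mb of chromosome 17 (build mm8), which is 10 Mb on each side of the Spdef probe at positions 27442294 to 27442353. Spdef itself and the probes of Tpsg1, Tff1, Tff2, Tff3 and of genes whose name in the files begins with H2-, Col or Cyp were left out by name (66 probes). This leaves 746 probes with 544 gene names out of 41174 probes on the array. Of the 746, 530 probes with 392 gene names passed the filter on dim signals and were tested, among 24896 probes tested on the whole array. The rule uses position and name and no measured ratio.

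Spdef is an ETS family transcription factor of secretory cells in the gut epithelium. The study set RNA of Spdef-/- mice (KO) against wild type RNA on Agilent arrays that read both RNAs at once in different dyes, in adult (P30) and fetal (E18.5) tissue. Each channel held a pool of total RNA from whole small intestines or colons of 2 to 3 littermates, and each KO and wild type pool pair was hybridised again with the dyes exchanged. The 20 arrays are 2 pool pairs of adult small intestine, 3 of adult colon, 3 of fetal small intestine and 2 of fetal colon. Fetal small intestine pairs 1 and 2 differed by less than the noise between arrays (SD of their difference 0.0649 on the log2 scale, against 0.0883 expected from the dye swaps) and were counted as 1 sample, which leaves 9 replicates. In the labels the KO is given as Spdef-/- or Spdef ko, with no mouse strain, and they do not say whether KO and wild type pools came from the same litters. The p-values measure the spread between these pools.

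A targeted allele is inherited together with the DNA that flanks it, and mice made from the embryonic stem cells of one strain and crossed to another can carry the stem cell strain's version of neighbouring genes for many generations. Inbred mouse strains differ in this part of chromosome 17, which holds the major histocompatibility complex, a cluster of zinc finger genes and an interval around Glo1 that is duplicated in some strains. A probe can also hybridise less well to a transcript that differs from it in sequence. Since every KO pool lacks Spdef and carries the targeted allele, loss of Spdef and the DNA linked to that allele cannot be told apart in these comparisons.

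Before the results, 3 features of the arrays bear on them. The Spdef probe read lower in KO than in wild type on each of the 20 arrays (log2 KO/wild type -4.09 to -1.20). The wild type pools labelled fetal small intestine 3 showed colon markers (mean log2 signal over 8 markers 8.90, against 7.14 and 7.18 in fetal small intestine 1 and 2), with Hoxb13 at 11.6 against 7.04 and 7.06. The wild type pools labelled fetal colon 1 showed small intestine markers (mean over 8 markers 11.4, against 7.98 in fetal colon 2). Both pairs were on the same slide. They were kept under their labels, so each fetal group as named here mixes pools with small intestine markers and pools with colon markers. Results are also given without that slide. The share of probes well above background ran from 40.3% to 72.1% per array and dye, and the number of replicates limits the precision.

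The results turn on Glo1, Zfp945 and Gfer, and the 250 bases before their transcription start are shown (RefSeq, build GRCm38.p6, whose positions are not those of the mm8 probes). They are shown because ETS factors bind DNA at a core GGA, and Spdef is known to prefer GGAT. Both strands were searched for CCGGAT and CCGGAA, which share every letter but the last. In windows of 300 bases (250 before to 50 after the start), CCGGAT was in 6.82% and CCGGAA in 16.7% of all promoters listed. Capitals mark a match.
Glo1, chr17:30612660-30612909, minus strand: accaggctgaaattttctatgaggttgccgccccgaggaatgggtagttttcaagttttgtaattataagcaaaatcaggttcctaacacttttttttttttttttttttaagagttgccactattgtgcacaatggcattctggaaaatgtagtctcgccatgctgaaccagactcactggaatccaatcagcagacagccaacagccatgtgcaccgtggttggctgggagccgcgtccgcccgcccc
Zfp945, chr17:22867135-22867384, minus strand: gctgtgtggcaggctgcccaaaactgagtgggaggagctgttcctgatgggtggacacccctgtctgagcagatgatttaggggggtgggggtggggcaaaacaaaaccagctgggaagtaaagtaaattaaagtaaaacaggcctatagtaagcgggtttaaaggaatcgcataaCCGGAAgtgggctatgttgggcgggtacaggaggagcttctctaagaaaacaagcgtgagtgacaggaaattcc
Gfer, chr17:24696157-24696406, minus strand: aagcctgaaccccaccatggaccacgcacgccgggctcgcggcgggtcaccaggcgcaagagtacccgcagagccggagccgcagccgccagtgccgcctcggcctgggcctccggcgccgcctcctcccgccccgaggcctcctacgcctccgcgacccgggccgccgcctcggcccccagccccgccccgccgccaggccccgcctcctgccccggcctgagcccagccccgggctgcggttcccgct
The stretch before Zfp945 held CCGGAA, beginning at -74 from the start, and the stretches before Glo1 and Gfer held neither motif. A match is a description of letters, not of binding. For the other genes of the segment the search is void, because promoters were listed for 283 of 392 tested genes.

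Across the mean of the 4 groups, 35 of 530 segment probes (6.60%) passed the threshold of an adjusted p of 0.05 (limma, Benjamini-Hochberg over all probes tested), against 1.32% of all 24896 probes tested. They belong to 32 genes, 16 probes being higher in KO (background 0.41%) and 19 lower (background 0.908%). On the other autosomes 1.07% of probes passed, with single chromosomes between 0.548% and 1.79%, and on the rest of chromosome 17 the share was 4.87%. The size of most ratios in the segment was small. In whole tissue, fewer cells of a type and less RNA per cell cannot be told apart. The median absolute log2 ratio over the members tested was 0.041, against 0.033 over all probes, and 32 probes (6.04%) lay beyond 0.25 in either direction against 1.81% of all probes. A fit without the slide shared by fetal small intestine 3 and fetal colon 1 has fewer replicates, so its threshold is harder to pass. All 35 probes past the threshold kept their sign in that fit. The count fell to 5 of 530 (background 0.233%) without the slide shared by fetal small intestine 3 and fetal colon 1, and those were the probes of Glo1 (both), Btbd9, Dnah8 and Gfer.

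**Figure D1:**
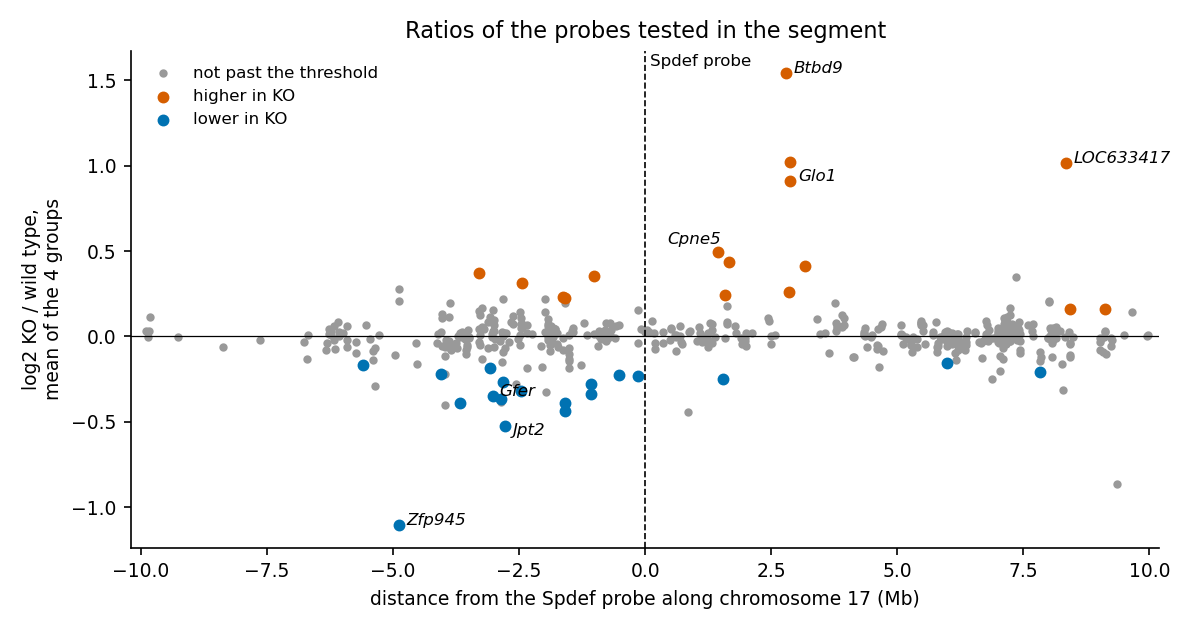
Log2 KO/wild type (mean of the 4 groups, y axis) of the 530 segment probes tested against distance from the Spdef probe in Mb (x axis); coloured points are the 16 probes higher and 19 lower past an adjusted p of 0.05, grey points the rest. Higher probes of Btbd9 and Glo1 stand at 2.80 and 2.88 Mb and the lower probe of Zfp945 at -4.89 Mb, while most probes lie near 0.

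One direction across replicates was also more frequent in the segment. The ratio had 1 sign in all 9 replicates for 39 members (7.36%), against 1.85% of all probes. Of the 39, 16 were higher (background 0.598%) and 23 lower (background 1.25%). It had 1 sign in all 4 group means for 118 members (22.3%) against 14.2% of all probes. Of the 35 probes past the threshold, 32 had 1 sign in all 4 group means, and 33 were larger in size in the mean of the adult groups than in that of the fetal groups. The 35 were picked by the mean of these same groups, so agreement in sign is partly built in. Neither count was set against the other probes past the threshold, and ratios over all probes were also wider in most adult pairs than in fetal pairs. In the spread of ratios within a pool pair, the members exceeded all probes in each adult pair (SD 0.245 to 0.326 against 0.173 to 0.261). In the fetal pairs the order was mixed. The SD of the members was 0.152, 0.173 and 0.157 in fetal small intestine 1, 2 and 3, against 0.142, 0.162 and 0.173 over all probes. In fetal colon 1 and 2 it was 0.154 and 0.132 against 0.146 and 0.148.

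By position, the probes past the threshold were not spread evenly. From -6 to 4 Mb of Spdef (negative towards the centromere), 30 of 271 probes passed (11.1%). From -10 to -6 Mb none of 22 passed in the limma fit of the mean, although 3 of 22 did in adult colon (13.6%, against 7.86% of all probes). From 4 to 8 Mb, which holds the antigen processing, complement and TNF genes of the histocompatibility complex, 2 of 186 passed (1.08%), and from 8 to 10 Mb 3 of 51 (5.88%). Directions also differed along the segment, with 15 of the 20 called probes between -5 and 0 Mb lower and 8 of the 9 between 0 and 5 Mb higher. These limits were drawn after the counts were seen and have no test.

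Beyond the segment the share did not fall away on the centromere side. There, 17 of 128 probes further than 10 Mb from Spdef passed (13.3%), among them 6 of the 13 between -20 and -18 Mb. On the telomere side 11 of 228 passed between 10 and 30 Mb (4.82%), and none of 219 beyond 30 Mb in the same limma fit. In adult colon 14 of those 219 passed (6.39%, against 7.86% of all probes). The next bins to the edges of the segment held 1 of 14 probes (-12 to -10 Mb), none of 6 (-10 to -8 Mb), 3 of 51 (8 to 10 Mb) and none of 3 (10 to 12 Mb).

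**Figure D2:**
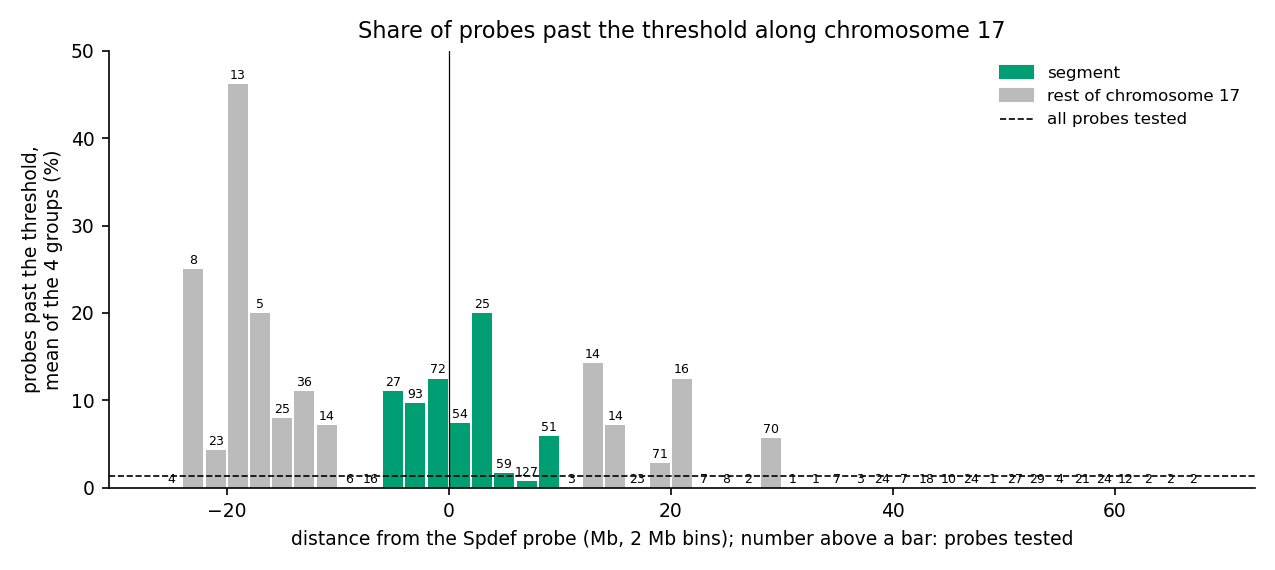
Percentage of tested probes past the threshold in the mean of the 4 groups (y axis) in 2 Mb bins of distance from the Spdef probe along chromosome 17 (x axis), green in the segment and grey outside; the number above each bar is the probes tested and the dashed line is 1.32%, the share of all probes. Bars from -6 to 4 Mb stand above the line, the bins from 4 to 8 Mb are near it, and bins of fewer than 20 probes hold at most 6 such probes each.

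Probes close to Spdef were counted apart. Of 45 probes with 34 gene names within 1 Mb, none was higher and 2 were lower in the mean (4.44%, against 0.908% of all probes lower). Their median log2 was 0.011, against 0.000 over all probes. In adult colon 2 were higher (4.44%, against 3.46% of all probes) and 2 lower (4.44%, against 4.4%). On the centromere side the adjoining gene is Pacsin1, whose product bends membranes during endocytosis, and its probes at -0.0067 and -0.0037 Mb gave log2 0.02 and 0.03 (adjusted p = 0.818 and 0.854). On the other side Ilrun gave 0.04 and 0.03 (adjusted p = 0.582 and 0.730). The ribosomal protein gene Rps10 gave 0.04 (adjusted p = 0.640). The splicing factor gene Snrpc gave 0.09 (adjusted p = 0.135) and passed in adult colon alone at 0.18 (adjusted p = 0.0397). The 2 probes lower in the mean were those of Lemd2, an inner nuclear membrane protein gene, and of the transcript AI413582. The latter lies at -0.15 Mb and gave log2 -0.23 ± 0.027 (limma SE, adjusted p = 0.00745). AI413582 ranged from -0.32 to -0.09 over the 9 replicates, below 0 in each.

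Among the same 45 probes, Clps, the pancreatic colipase that anchors lipase to fat, had the largest ratio without passing. Its log2 values were 0.57 and -1.53 in adult small intestine and -1.67, -0.30 and -1.80 in adult colon, so that replicates of one group had opposite signs. The fetal values lay between -0.56 and 0.31. Markers of pancreas moved with it: the 5 measured had group ratios of -1.93 to -0.33 in adult small intestine and -2.32 to -1.04 in adult colon. Their part in the ratio of Clps was not tested.

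Glo1 encodes glyoxalase 1, which with glutathione removes methylglyoxal, a reactive by-product of glycolysis. Its 2 probes lie at 30320018 to 30320077 and 30321137 to 30321196, 2.88 Mb from Spdef. The first probe gave log2 KO/wild type of 1.20 and 1.33 (adult small intestine), 1.51, 1.47 and 1.38 (adult colon), 0.70 and 0.59 (fetal small intestine), and 0.73 and 0.71 (fetal colon). Every replicate was above 0, and the adult and fetal values did not overlap. The mean was 1.02 ± 0.027 (2.03-fold, limma adjusted p = 3.45e-06), and the second probe gave 0.91 ± 0.027 (1.88-fold, adjusted p = 4.57e-06). The ratio was above 0 on 20 of 20 arrays for both probes (0.48 to 1.60 and 0.45 to 1.48).

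Both Glo1 probes passed in each of the 4 groups. The first rose by 1.26 ± 0.057 in adult small intestine (adjusted p = 0.000107) and 1.45 ± 0.047 in adult colon (adjusted p = 1.19e-05). In the fetal groups it rose by 0.65 ± 0.057 in small intestine (adjusted p = 0.00424) and 0.72 ± 0.057 in colon (adjusted p = 0.00415). The fit of the difference between the adult and fetal means gave 0.68 ± 0.055 (adjusted p = 0.00681) and, for the second probe, 0.61 ± 0.055 (adjusted p = 0.00809). Without the slide of fetal small intestine 3 and fetal colon 1 these differences were 0.65 and 0.56 and did not pass (adjusted p = 0.135 and 0.152), nor did the fetal ratios by themselves. On the log2 intensity scale the first probe's wild type levels were, for small intestine, 12.4 (adult) and 13.2 (fetal), and for colon 12.5 (adult) and 12.7 (fetal). The KO levels were 13.6 and 13.9, then 13.9 and 13.4, in that order. The group means in KO lay between 13.4 and 13.9, and those in wild type between 12.4 and 13.2.

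The genes on each side of Glo1 gave unlike ratios from one probe to the next. Btbd9, which encodes a BTB domain protein, has 3 probes tested. The probe nearest Glo1, at 30240596 to 30240655, gave 1.65 and 2.59 in adult small intestine and 2.33, 2.49 and 2.56 in adult colon. In the fetal groups it gave 1.08 and 0.76 (small intestine) and 0.70 and 0.63 (colon), again with no overlap between stages. The mean was 1.54 ± 0.087 (2.91-fold, limma adjusted p = 0.000126). The other Btbd9 probes, at 29944794 and 30001923, gave 0.00 ± 0.0655 and 0.01 ± 0.0294 (adjusted p = 0.987 and 0.948). The transcript 0710001D07Rik, between that Btbd9 probe and Glo1, gave 0.26 ± 0.046 (adjusted p = 0.038). It was above 0 in 9 of 9 replicates (0.08 to 0.47).

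Dnah8, a heavy chain of axonemal dynein (Dnahc8 in the files), lies beyond Glo1. Its probe at 30602125 to 30602184 gave 0.99, 0.87 and 1.11 in adult colon and 0.41 and 0.55 in adult small intestine, with fetal values of 0.12 and 0.11 (small intestine) and 0.14 and 0.00 (colon). The mean was 0.41 ± 0.032 (1.33-fold, adjusted p = 0.000904), and the ratio passed in both adult groups (adjusted p = 0.03 and 0.000124). The other 2 Dnah8 probes were well above background on none of the 20 arrays, and Glp1r, the receptor of glucagon-like peptide 1, was so in 2 KO and 1 wild type channels and was not tested. In all, 4 of the 6 tested probes of Glo1, Btbd9 and Dnah8 were higher in the mean and none lower (median log2 0.66, against 0.00 over all probes). That list was drawn up with earlier results of these data known.

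**Figure D3:**
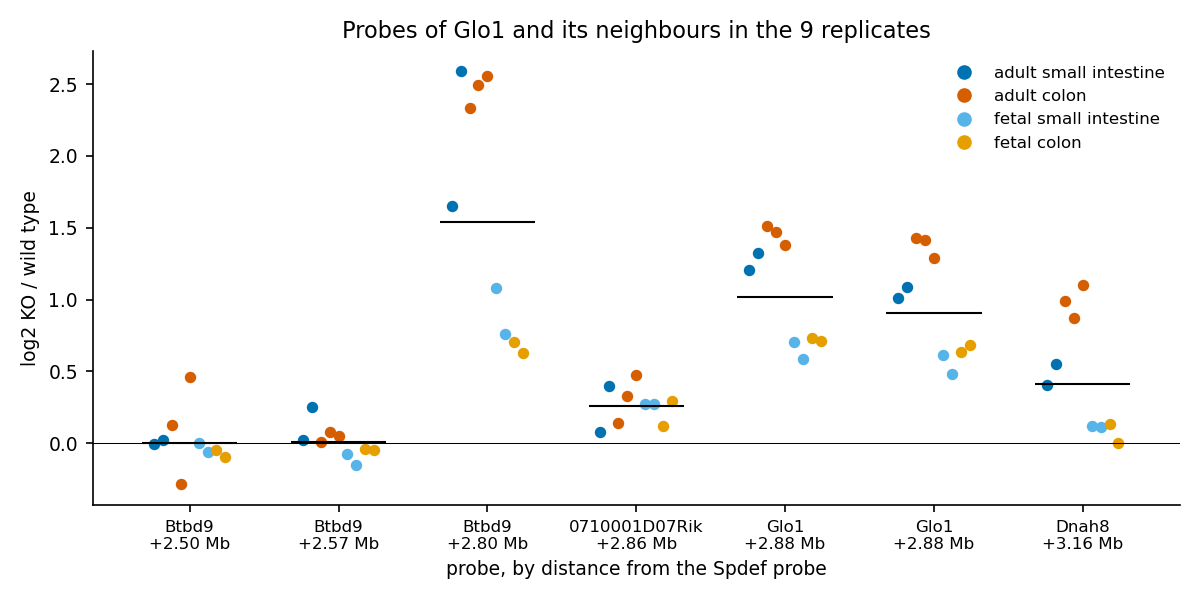
Log2 KO/wild type (y axis) of the 7 tested probes of Btbd9, 0710001D07Rik, Glo1 and Dnah8 in each of the 9 replicates (points, coloured by group), with the mean of the 4 groups as a bar; probes stand in order of distance from the Spdef probe. Adult points lie above fetal points at the probe of Btbd9 at 2.80 Mb, at both Glo1 probes and at Dnah8, and the other Btbd9 probes lie around 0.

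The lower probe with the largest ratio belongs to Zfp945 (A630033E08Rik in the files), one of a cluster of zinc finger genes. Its probe at 22557156 to 22557214, -4.89 Mb from Spdef, gave -0.93, -2.22 and -1.25 in adult colon and -0.85 and -2.01 in adult small intestine, with fetal values of -0.59 and -0.55 (small intestine) and -1.03 and -0.89 (colon). All 9 replicates and 20 of 20 arrays were below 0. On 1 of the 2 arrays of adult colon 1 the probe was not well above background in either dye (-0.11, against -1.74 on its dye swap), which lowers the size of that replicate and the adult colon levels. Without adult colon 1 the mean was -1.17 (adjusted p = 0.0259). Over all replicates the mean was -1.11 ± 0.15 (limma adjusted p = 0.0124), a 2.15-fold lower signal. This call did not hold without the slide named above (-1.09, adjusted p = 0.184) or with the series value table (-1.76, adjusted p = 0.0503). The call was also lost without fetal small intestine 3, fetal colon 1 or fetal colon 2 (adjusted p = 0.0526, 0.0618 and 0.0543).

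Other probes of Zfp945 pointed the other way. The probes at 22552287 and 22554267 gave 0.21 ± 0.045 and 0.28 ± 0.060 (adjusted p = 0.0705 and 0.0715), and both were above 0 in 9 of 9 replicates. The probe with 0.28 was dim, well above background on 18 of 20 arrays in KO and on 14 in wild type. The fourth probe, at 22568378, was well above background on no array. For the lower probe the wild type signal was 9.30 and 9.56 (log2) in small intestine and colon of adults and 9.29 and 9.34 in those of fetuses. The KO signal was 7.87, 8.09, 8.72 and 8.38 in that order. So the same gene name carried a probe lower in KO and 2 with higher values in KO in every replicate.

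The zinc finger genes of the segment, Zfp945 included, are 54 tested probes of 33 genes. In the mean 2 probes were lower (Zfp945 and Zfp947; 3.70%, against 0.908% of all probes) and none higher, and the median log2 was -0.014. Zfp947 was at -0.17 and turned to 0.01 with the series value table. In adult colon 9 zinc finger probes were lower (16.7%, against 4.4% of all probes) and none higher, out of 78 of 530 members (14.7%) past the threshold there against 7.86% of all probes. The 9 lower probes were those of Zfp160, Zfp820 (2 of 3 probes tested), Zfp947, Zfp944, Zfp758, Zfp945, Zfp40 and Zfp414. Of these, Zfp160 gave -0.45 in adult colon and 0.15 in fetal small intestine, and one probe of Zfp820 -0.34 and 0.29. The median over the 54 probes was -0.11 (adult colon), -0.07 (adult small intestine), 0.12 (fetal small intestine) and 0.004 (fetal colon), so it lay on both sides of 0. The adult minus fetal difference passed for Zfp160 (-0.42 ± 0.068, adjusted p = 0.0393) and for that Zfp820 probe (-0.35 ± 0.058, adjusted p = 0.0423). Neither difference passed without the shared slide (adjusted p = 0.312 and 0.319).

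Gfer encodes a sulfhydryl oxidase that forms disulfide bonds in proteins imported into mitochondria. Its probe at 24422894 to 24422953, -3.02 Mb from Spdef, gave -0.29 and -0.44 (adult small intestine), -0.41, -0.43 and -0.45 (adult colon), -0.28 and -0.39 (fetal small intestine) and -0.29 and -0.26 (fetal colon). The groups overlapped, with every replicate and 20 of 20 arrays below 0. The mean was -0.35 ± 0.026 (1.27-fold lower, limma adjusted p = 0.00071), and Gfer fell in adult small intestine (adjusted p = 0.039) and adult colon (adjusted p = 0.00243). The fetal ratios were -0.33 and -0.28 (adjusted p = 0.06 and 0.167). Without the shared slide the mean was -0.33 (adjusted p = 0.0346), and with median centring in place of loess it was -0.42 and did not pass (adjusted p = 0.107). Around Gfer lies a dense group of genes, listed here as 23 tested probes of 19 genes. Of these, Abca3, a lipid transporter, was higher in the mean (4.35%, against 0.41% of all probes). Gfer and Slc9a3r2, a scaffold of membrane exchangers, were lower (8.7%, against 0.908%), and the median log2 of the 23 probes was 0.035. In adult colon 4 were higher (17.4%, against 3.46%) and 2 lower (8.7%, against 4.4%).

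The mitochondrial enzyme genes near Gfer included Fahd1, an acylpyruvate hydrolase. Its values ran from -0.85 to -0.15 over the 9 replicates (mean -0.37 ± 0.062, adjusted p = 0.0298). Next to it, Hagh encodes glyoxalase 2, the enzyme that acts after glyoxalase 1. Hagh was below 0 in 9 of 9 replicates (-0.98 to -0.15) but did not pass (-0.38 ± 0.080, adjusted p = 0.0657). Its values thus lay on the other side of 0 from those of Glo1.

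Genes with several probes were compared probe by probe. Of 111 genes with at least 2 probes tested, 14 had at least 1 past the threshold in the mean. In 3 of the 14 every tested probe passed, namely Glo1, Ergic1 and Pgap6, and in 11 only 1 did. In 10 of the 14 all tested probes had 1 sign. A probe passing beside another that does not is no test of a difference between them. These counts were not made for genes outside the segment. No gene had probes past the threshold in both directions in the mean.

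Pgap6, a phospholipase that cuts lipid anchors of surface proteins (Tmem8 in the files), gave -0.44 ± 0.050 and -0.39 ± 0.062 with probes 573 bases apart (adjusted p = 0.00608 and 0.0224). It was lowest in adult small intestine, at -0.73 and -1.03 with the first probe, and between -0.45 and -0.11 in the 7 other replicates. Ergic1, a protein that cycles between endoplasmic reticulum and Golgi, gave -0.34 ± 0.043 and -0.28 ± 0.038 (adjusted p = 0.00928 and 0.0137), with every replicate of both tested probes below 0. Mrpl28, a mitochondrial ribosomal protein, gave 0.22 (adjusted p = 0.0326) and 0.20 (adjusted p = 0.0666), and Vars2, a mitochondrial valyl-tRNA synthetase, -0.21 and -0.14, of which only the first passed.

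In other genes nearby probes parted. Lemd2 has probes at 26917303 and 26917363, whose midpoints are 60 bases apart. The first gave -0.23 ± 0.023 (adjusted p = 0.00346) and the second 0.07 ± 0.022 (adjusted p = 0.204), and the first was the lower in 9 of 9 replicates.

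The same held for Jpt2, a Jupiter microtubule-associated homolog (Hn1l in the files), whose probes 569 bases apart gave -0.53 ± 0.071 (adjusted p = 0.0128) and -0.07 ± 0.036. The lower Jpt2 probe gave -0.55 and -1.28 in adult small intestine and -0.69 to -0.24 in the 7 other replicates. Kctd5, an adaptor of cullin 3 ligases, gave -0.39 ± 0.054 (adjusted p = 0.0132) and -0.00 ± 0.029. Atp6v0e, a subunit of the vacuolar proton pump, gave 0.35 ± 0.043 (adjusted p = 0.00865) and 0.01 ± 0.027. In Jpt2, Kctd5, Atp6v0e, Abca3, BC004004, Lemd2, Btbd9 and Zfp945 the probe past the threshold lay beyond every other tested probe of the gene. It did so in 9 of 9 replicates. The first Glo1 probe also did, although both Glo1 probes passed (1.02 and 0.91). Such probes were picked by their mean over these same replicates, so this order is partly built in. It was not set against other genes and is no test of a difference between probes. Whether the probes read different transcripts or sequences was not tested, since no probe sequences or mm8 gene models were used here and the probes could not be placed in exons or UTRs.

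**Figure D4:**
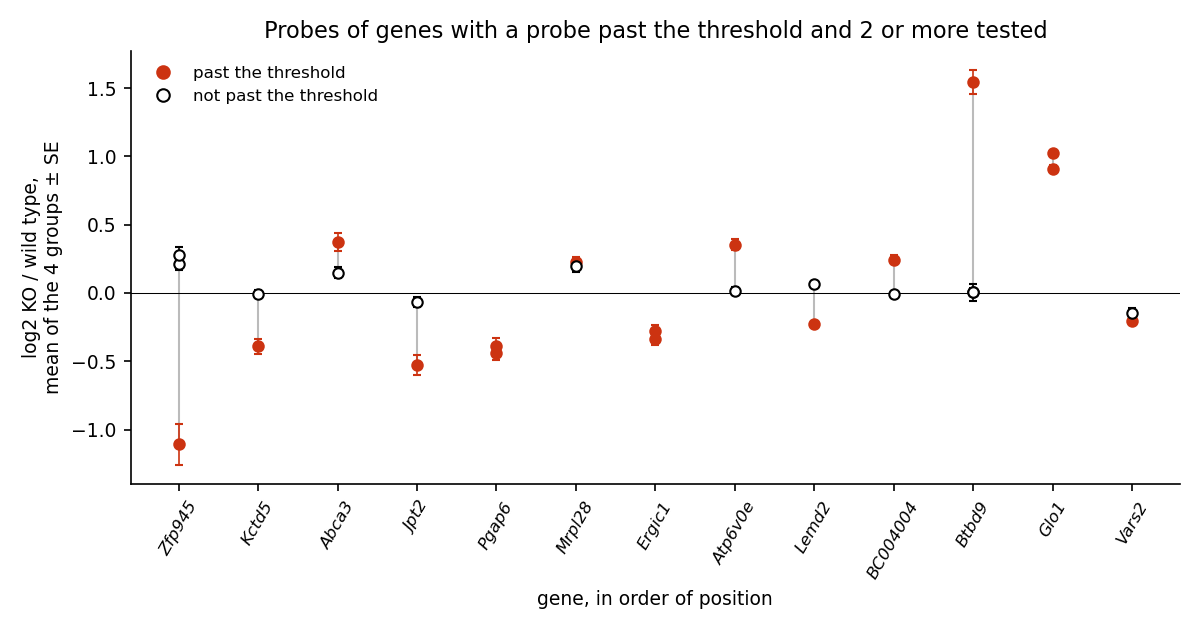
Mean log2 KO/wild type ± limma SE (y axis) of every tested probe of 13 of the 14 genes with at least 2 probes tested and at least 1 past the threshold (x axis, in order of position); filled points passed and open points did not. Glo1, Pgap6 and Ergic1 have filled points only, whereas Zfp945, Lemd2 and BC004004 have probes on both sides of 0.

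Among the genes higher in KO beyond the Glo1 interval, Fgd2, an exchange factor for the GTPase Cdc42, was above 0 in every replicate. It gave 0.30 and 0.59 with adult small intestine, 0.55, 0.72 and 0.80 with adult colon, and fetal values of 0.44 and 0.28 (small intestine) and 0.28 and 0.21 (colon), with a mean of 0.43 ± 0.041 (adjusted p = 0.00213). Near it, Cpne5, a calcium-dependent lipid-binding copine, gave 1.21 and 0.66 in adult small intestine and 0.50, 0.99 and 0.90 in adult colon. Its fetal values of -0.16 to 0.45 lay below all adult ones, with a mean of 0.49 ± 0.085 over the 4 groups (adjusted p = 0.0342). The adult minus fetal difference of Cpne5 did not pass. LOC633417, described as similar to a class I histocompatibility gene, gave 2.46 and 1.71 in adult small intestine and 0.33 to 1.59 in the 7 other replicates. Its mean was 1.01 ± 0.13 (adjusted p = 0.012), and class I genes are near-identical copies of one another, so its probe's gene is uncertain.

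The remaining higher genes had smaller ratios. Decr2, a peroxisomal enzyme of fatty acid breakdown, gave 0.23 ± 0.031 (adjusted p = 0.0124) with 9 of 9 replicates between 0.08 and 0.38. Ppp1r11, an inhibitor of protein phosphatase 1, gave 0.16 ± 0.026 (adjusted p = 0.0266). The RNase P subunit gene Rpp21 gave 0.16, BC004004 0.24 and F830028O17Rik 0.31. Of the remaining lower ones, Ppil1, a cyclophilin of the spliceosome, gave -0.25 ± 0.037 (adjusted p = 0.0189) and was the only lower probe between 0 and 5 Mb. Bicdl2 gave -0.22 (adjusted p = 0.0189) and BC034637 -0.27 (adjusted p = 0.0146), each below 0 in 9 of 9 replicates.

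**Figure D5:**
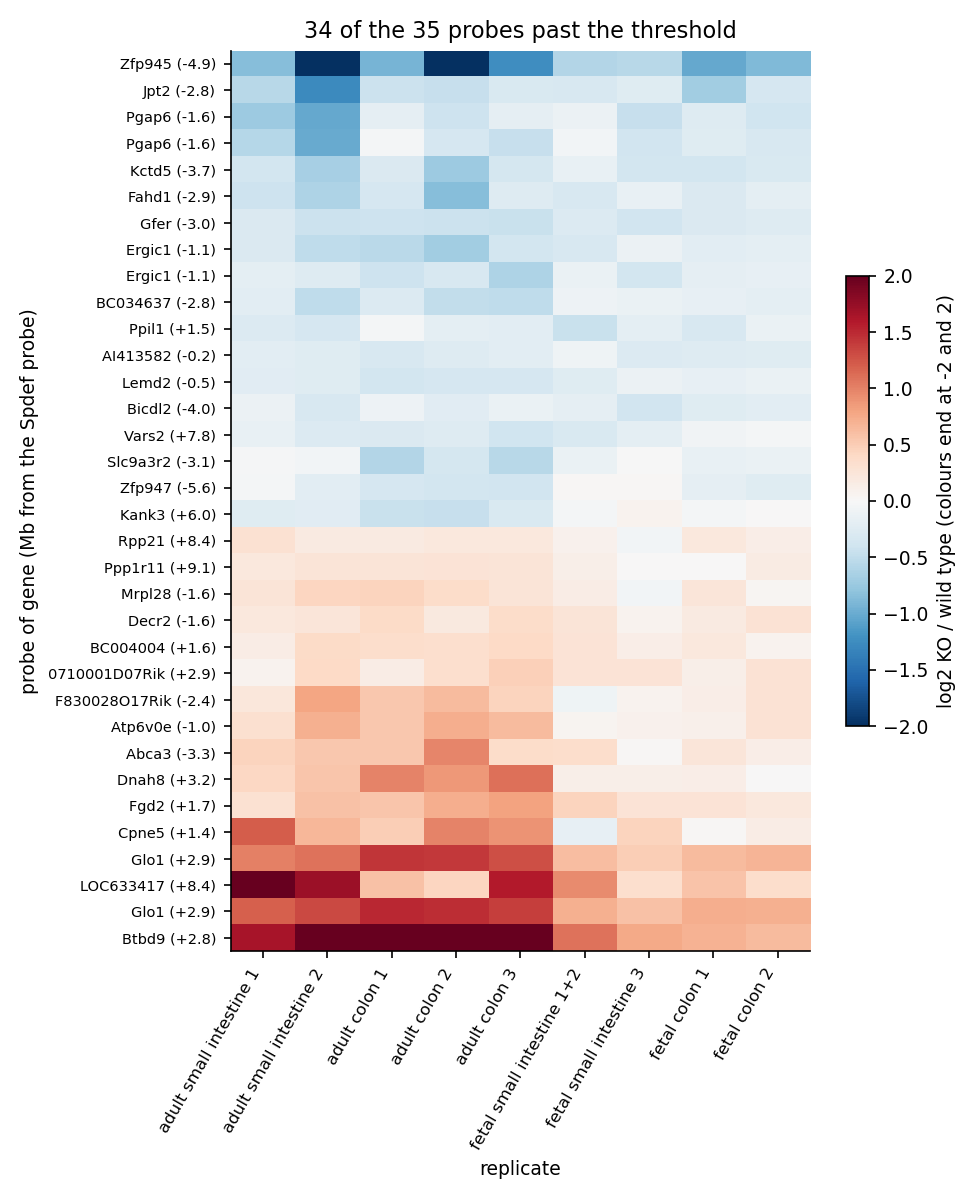
Log2 KO/wild type (colour) of 34 of the 35 probes past the threshold (rows, ordered by mean, with Mb from the Spdef probe) in the 9 replicates (columns). Rows of Glo1 and Gfer keep 1 colour across all columns. Most rows are paler in the 4 fetal columns, as 33 of the 35 are larger in the adult mean, a count not set against probes outside the segment.

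The groups differed in how many segment probes passed. In adult small intestine 8 members did (1.51%) against 0.366% of all probes, 5 higher (background 0.169%) and 3 lower (background 0.197%). These were Btbd9, LOC633417, Glo1 (both), Dnah8, Pgap6, Gfer and Msln, the cell surface protein mesothelin (-0.89 ± 0.135, adjusted p = 0.0424). In adult colon 40 were higher (background 3.46%) and 38 lower (background 4.4%). The lower ones with the largest ratios after Zfp945 there were Kremen2, a Wnt coreceptor (-0.74, adjusted p = 0.0234), Tnxb, an extracellular matrix tenascin (-0.62), Arhgdig, a regulator of small GTPases (-0.57), and Cacna1h, a calcium channel (-0.55, adjusted p = 0.00472). A different Cacna1h probe passed the other way there (0.25, adjusted p = 0.0246), so the ratio of that gene depended on the probe. Leaving out adult colon 1 lowered the adult colon count to 20, leaving out adult colon 2 lowered it to 38, and leaving out adult colon 3 to 46.

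In each fetal group the 2 Glo1 probes were the only members past the threshold (0.377% of members, against 0.366% of all probes for fetal small intestine and 0.233% for fetal colon), so the share of members was near the background. A weaker ratio in fetal pools was tested directly only through the adult minus fetal difference. That difference passed for 8 members (1.51%) against 0.835% of all probes, 5 of them with a positive value (background 0.43%) and 3 with a negative one (background 0.406%). Besides Glo1, Zfp160 and Zfp820 they were Btbd9 (1.50 ± 0.17), Dnah8 (0.64 ± 0.065), Kank3 (-0.32 ± 0.053) and the clone NAP102645-1 (0.31 ± 0.049). None of the 8 passed without the shared slide, where their values were 1.44 for Btbd9, 0.67 for Dnah8, -0.30 for Kank3 and 0.28 for the clone. Between small intestine and colon no member passed in the limma fit (0.137% of all probes did). At an unadjusted p of 0.05, 49 members (9.25%) passed that difference against 7.44% of all probes. This tissue difference follows the labels, and fetal small intestine 3 and fetal colon 1, which showed markers of the other tissue, weaken it. The lack of calls therefore does not show that the ratios are the same in both tissues.

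Immune and stress genes of the segment gave few changes. Of antigen processing genes (Tap1, Tap2, Tapbp, Psmb8 and Psmb9), none of 7 probes passed in the mean or in any group, with values of -0.08 to 0.03 in the mean and -0.29 to -0.12 in fetal colon. None of 4 probes of complement genes passed, nor any of 8 in the TNF cluster in the mean (median log2 0.055), where 1 of 2 probes of Aif1, a macrophage marker, passed in adult colon (0.21, adjusted p = 0.0453, against 0.18 and 0.143 for the other). Of the lymphocyte and macrophage markers, none of 6 tested passed in adult colon, with values of 0.03 to 0.31, and their part in Aif1 was not tested. None of 4 heat shock 70 probes, 7 protease cluster probes or 15 probes of kinase and cell cycle genes passed in the mean. The cell cycle inhibitor Cdkn1a and the kinase Pim1 are among the latter, whose values lay between -0.09 and 0.08. Ubd, a ubiquitin-like protein induced by inflammation, was at -0.87 in the mean without passing (adjusted p = 0.0568).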

How the data were processed

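Agilent Feature Extraction 9.5.3 (per the submitters' processing notes) gave the deposited mean and background intensity of each spot in each dye and, per the file headers, a log10 ratio of red over green. The authors' series value table holds log2 KO/wild type ratios with array medians at 0 and 47.8% to 72.2% of values at exactly 0. Its other values followed that deposited ratio on each array, once turned to log2 KO/wild type (r 0.946 to 0.998, slope 0.991 to 1.01). How the table was normalized is not given in the sources used here.

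From the intensities, background was corrected (normexp, offset 50) and each array loess-normalized with limma 3.58.1 in R 4.3.3. Control spots and outliers were left out, ratios were turned to KO/wild type and dye swaps averaged. Probes entered the test where every array of some group, in KO or in wild type, read them well above background. One limma model with 4 group terms was fitted to all 24896 probes tested over 9 replicates, with Benjamini-Hochberg adjustment over all of them and a two-sided threshold of 0.05. Errors (±) are limma's standard errors of log2 ratios. Positions are mm8, as in the files; distances run between probe positions, and gene names were updated through RefSeq tables (496 member probes by accession, 88 by symbol, 57 by synonym, 105 kept). The code was tested on simulated data.

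Named genes are Glo1, Zfp945 and Gfer, the members past the threshold in the mean with one sign in every replicate (up to 15 in each direction by size), up to 5 in each direction per group, genes with 2 or more probes past the threshold, listed gene groups and the probes nearest to Spdef. Cpne5, F830028O17Rik, Rpp21, Mrpl28, Hagh, Clps, Ubd and the genes of the adult minus fetal difference were added after their values were seen. One gene past the threshold in the mean is counted but not reported here by name or drawn in the gene plots. The members and lists were chosen with earlier results of these data known. Alternatives covered background, normalization, filters, replicates, blocks and segment width.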

Additional observations from a re-analysis of the deposited data

Results flagged for a closer look

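The ratio between KO and wild type differed between adult and fetal tissue for 8 segment probes, by the limma test of that difference adjusted over all probes. For Glo1 the adult minus fetal difference was 0.68 (adult mean 1.36, fetal mean 0.68) with one probe and 0.61 (1.21 and 0.61) with the other. For Btbd9 it was 1.50 (2.29 and 0.79), for Dnah8 0.64 (0.73 and 0.09) and for the clone NAP102645-1 0.31 (0.27 and -0.04). The Dnah8 probe was dim in fetal wild type pools (log2 signal 7.49 in small intestine and 7.40 in colon). For 3 genes the adult ratio was the lower: Zfp160 -0.42 (-0.34 and 0.08), Zfp820 -0.35 (-0.20 and 0.16) and Kank3 -0.32 (-0.32 and 0.00). When single replicates were left out in turn, the 2 Glo1 differences passed in 9 of 9 fits, Dnah8 in 6, Btbd9 in 5, the clone in 2, Zfp160 and Kank3 in 1 each and Zfp820 in 0. Without the slide of fetal small intestine 3 and fetal colon 1 none passed, and each of the 8 kept its sign.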

How the results depend on the processing

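Glo1 kept its direction and its side of the threshold in 22 of 22 alternative settings (log2 0.94 to 1.04), Gfer in 20 of 22 (-0.42 to -0.31) and Zfp945 in 15 of 21 (-1.86 to -0.76). None of these 3 changed direction. Of the 35 probes past the threshold in the mean, 34 kept their sign with the series value table, and Zfp947 went from -0.17 to 0.01 (adjusted p = 0.663). Median centring left Gfer at -0.42 (adjusted p = 0.107), and the series value table left Zfp945 at -1.76 (adjusted p = 0.0503). Counts of segment probes past the threshold follow. With the scanner's processed signals they were 15 (adult small intestine), 51 (adult colon) and 5 (fetal colon). Without background subtraction there were 4 and 5 in fetal small intestine and colon and 13 in the adult small intestine. With median centring in place of loess they were 8 in the mean, 4 in adult colon, 1 in adult small intestine, and 0 in either fetal group or the adult minus fetal difference (limma; 14, 30 and 26 at an unadjusted p of 0.05). The series value table gave 21 in adult colon and 6 in fetal small intestine. With the brightest probe per gene there was 1 in each fetal group and 5 for the adult minus fetal difference. With fetal small intestine pairs 1 and 2 counted separately there were 63 in the mean, 16 in adult small intestine, 15 in fetal small intestine and 22 for the adult minus fetal difference. Each group fitted alone gave 0 in adult small intestine and fetal small intestine (limma; 111 and 53 unadjusted), 9 in adult colon and 5 in fetal colon. Without the slide of fetal small intestine 3 and fetal colon 1 there were 5 in the mean, 38 in adult colon, 3 in adult small intestine, and 0 in either fetal group or the adult minus fetal difference (limma; 27, 12 and 61 unadjusted). A segment of 5 Mb each side gave 4 for the adult minus fetal difference. The causes were not tested.

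Deviations of same-numbered pairs from their group means correlated at r -0.132 to 0.148, and those of other pairs at -0.157 to 0.157. In a group of 2 pairs the deviations mirror each other, so these ranges cannot decide whether the numbers pair the samples. With the replicate number as a block, the mean no longer called Zfp945 (-0.76, adjusted p = 0.458) or Gfer (-0.31, adjusted p = 0.163), and there were 3 in the mean, 13 in adult colon, 4 in adult small intestine, 1 for fetal small intestine and 5 for the adult minus fetal difference. Leaving out single replicates gave 12 to 36 in the mean (12 without fetal colon 1, 16 without fetal colon 2, 19 without fetal small intestine 3 and 22 without adult small intestine 2), 20 to 70 in adult colon, 4 to 10 in adult small intestine, 0 to 3 in each fetal group, 2 to 8 for the adult minus fetal difference and 0 for small intestine minus colon. Where 1 pair of a group is left, it is assumed to vary like the other groups. Of the 35 probes past the threshold in the mean, 11 passed in all 9 of these fits. Slc9a3r2, Abca3, Fahd1, Cpne5, Mrpl28, Rpp21, Ppp1r11, 0710001D07Rik and F830028O17Rik were among those that did not. The few pools, and signal close to background for dim probes, limit what could be detected.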
